A study of Rattus norvegicus with 21 samples.

Results

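The 10 DNA replication licensing genes Mcm2, Mcm3, Mcm4, Mcm5, Mcm6, Mcm7, Mcm10, Cdc6, Cdt1 and Pcna were followed through bulk RNA sequencing of rat infarct-zone tissue. They were taken by symbol from 17085 gene symbols. Each of the 10 had a row, and all 10 were among the 11742 symbols with enough counts to be tested. The animals were Sprague Dawley rats, and the study asked how ischemia followed by early or late reopening of the artery changes the heart. The 21 libraries fell into 7 groups of 3. In MI1h_R the left anterior descending coronary artery was tied for 1 h and then reopened, and in MI6h_R it was tied for 6 h and then reopened. In MI24h it stayed tied for 24 h. Tissue was taken 24 h after the infarction, and the F titles give 23 h and 18 h after the 1 h and 6 h ties. MI1h_F, MI6h_F and MI24h_F had those injuries with an added F in the sample titles. The study's design text names pretreatment with fenofibrate, an agonist of the lipid-sensing receptor PPARα, but no label spells out F and no Sham group carries it. Sham rats served as the common control, and their tissue also carries the label infarct zone. No label ties a library to an animal, so p-values measure the spread between these libraries, which may in part be technical.

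Licensing is the step that allows a stretch of chromosome to be copied once, and only once, in each cell cycle. The origin recognition complex marks an origin, Cdc6 and Cdt1 join it, and together they load the ring-shaped helicase built from Mcm2 to Mcm7 onto DNA in an inactive form. In S phase kinases and further factors switch the helicase on, Mcm10 helps it to start unwinding, and Pcna forms the sliding clamp that holds the DNA polymerases on their template. The genes of this machinery are classical targets of E2F transcription factors and are low in resting cells. Adult heart muscle cells rarely divide, whereas fibroblasts, endothelial cells and some leukocytes can enter the cell cycle after injury.

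Total counts ran from 12208041 to 18393795 per library. Levels are given as CPM, counts relative to the library size, with sizes scaled by the trimmed mean of M-values (TMM), whose factors were 0.535 to 0.677 in Sham and 0.996 to 1.17 in the injured groups. Transcripts of the mitochondrial genome took 11.3% to 20.2% of the counts in the injured libraries and 33.5% to 38.5% in Sham. Among the Sham libraries, replicate 31 stood apart for the licensing genes, and the results against Sham are therefore given with and without it. Its CPM was 1.4 times (Mcm10) to 4.85 times (Cdc6) the mean of the other Sham libraries. The same library had a summed level of 10 macrophage and monocyte markers of 2972 CPM, against 895 and 952 CPM in Sham replicates 11 and 41. In bulk tissue, fewer cells of a type and less RNA per cell cannot be told apart.

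All 10 licensing genes were higher in each of the 6 injured groups than in Sham. The median log2 fold change over the 10 was 1.90 in MI1h_F, 1.92 in MI1h_R, 1.92 in MI6h_F, 1.79 in MI6h_R, 1.65 in MI24h_F and 1.58 in MI24h. Over all tested genes the median lay between 0.03 and 0.07. Each gene passed edgeR's quasi-likelihood test at a Benjamini-Hochberg adjusted p under 0.05 in all 6 comparisons, which share the Sham libraries. Of all tested genes, 23.9% were called higher in MI1h_F, 25.4% in MI1h_R, 28.6% in MI6h_F, 29.3% in MI6h_R, 30.7% in MI24h_F and 28.04% in MI24h. Every injured library lay above every Sham library for all 10 genes in 5 of the comparisons and for 8 genes in MI24h, where Mcm10 and Pcna overlapped with Sham. That separation was met by 27.4% of all tested genes in MI1h_F, 24.7% in MI1h_R, 29.4% in MI6h_F, 29.9% in MI6h_R, 32.3% in MI24h_F and 27.1% in MI24h. Cdc6 had the highest fold change in each of the 6 comparisons and Pcna the lowest.

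Summed over the 10 genes, the level was 919 ± 86.6 CPM in MI1h_F, 995 ± 117 CPM in MI1h_R and 904 ± 16.8 CPM in MI6h_F (SD, n = 3 each). It was 772 ± 38.5 CPM in MI6h_R, 819 ± 38.99 CPM in MI24h_F and 689 ± 117 CPM in MI24h, against 270.0 ± 127 CPM in Sham. The lowest injured library had 559 CPM, in MI24h, and the highest Sham library 416 CPM.

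**Figure D1:**
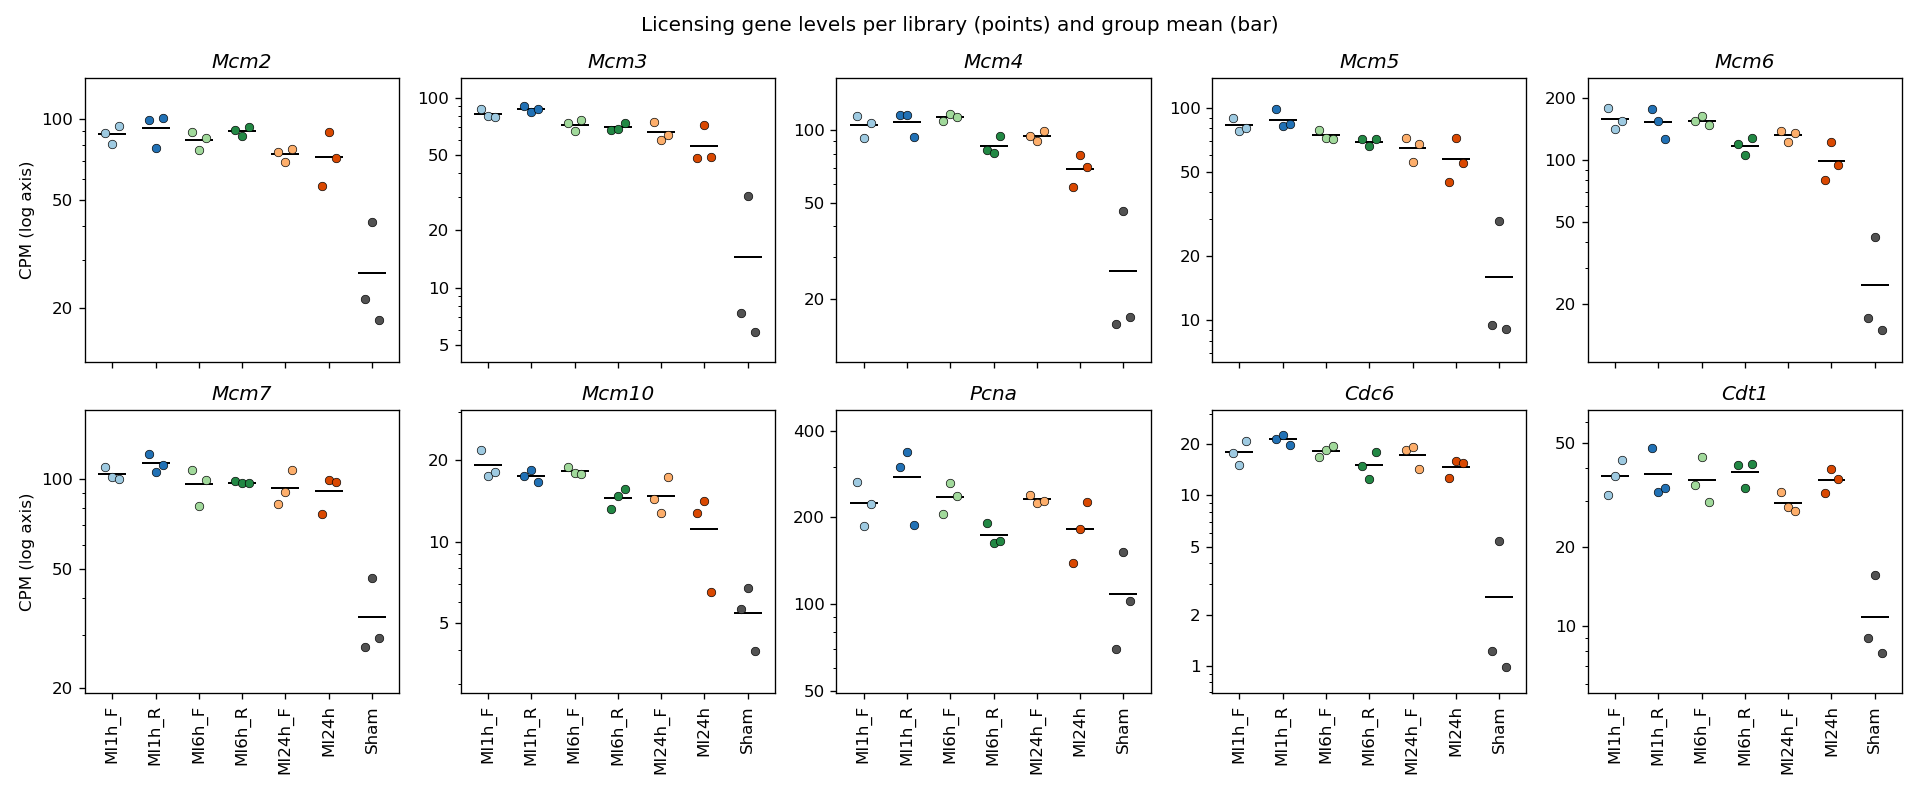
Level of each licensing gene (vertical axis, CPM on a log axis) in each library (points) of the 7 groups, with the group mean as a bar. The injured groups sit above Sham in every panel except for overlapping libraries of Mcm10 and Pcna in MI24h, and the lowest MI6h_R library of Pcna is close to the highest Sham library.

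Cdc6, the ATPase that recruits the helicase to the origin, was low in every library. It had 17.7, 15.1 and 20.7 CPM in MI1h_F, 21.3, 22.6 and 19.8 CPM in MI1h_R and 16.8, 18.5 and 19.3 CPM in MI6h_F. It had 14.9, 12.5 and 17.97 CPM in MI6h_R, 18.5, 19.3 and 14.2 CPM in MI24h_F and 12.7, 15.8 and 15.4 CPM in MI24h, against 1.23, 5.37 and 0.987 CPM in Sham. The injured libraries all exceeded the highest Sham library, and a single Sham library was several times above the other Sham libraries. The log2 fold change was 3.04 ± 0.40 (SE) in MI1h_R (edgeR adjusted p = 1.05e-05) and 2.51 ± 0.39 in MI24h (edgeR adjusted p = 3.91e-05). Without Sham replicate 31 it was 4.27 in MI1h_R and 3.73 in MI24h.

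Cdt1, the helicase's escort to the origin, had 31.6, 37.1 and 43.02 CPM in MI1h_F, 47.6, 32.4 and 33.5 CPM in MI1h_R and 34.5, 44.1 and 29.6 CPM in MI6h_F. In MI6h_R it had 41.1, 33.6 and 41.3 CPM, in MI24h_F 32.5, 28.5 and 27.5 CPM and in MI24h 32.1, 39.5 and 36.3 CPM, against 8.98, 15.7 and 7.90 CPM in Sham. No injured group overlapped with Sham. The log2 fold changes of Cdt1 against Sham kept within a narrow span, with 1.44 in MI24h_F at the low end and 1.83 in MI6h_R at the high end. All had an edgeR adjusted p of 4.44e-05 or less.

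Among the helicase subunits Mcm6 had the largest fold change in 5 of the 6 comparisons, and in MI6h_R Mcm3 was slightly above it (2.26 ± 0.39 for Mcm3 and 2.24 ± 0.28 for Mcm6). Without Sham replicate 31 the fold change of Mcm3 exceeded that of Mcm6 in all 6 comparisons. It had 179, 142 and 156 CPM in MI1h_F, 177, 155 and 128 CPM in MI1h_R and 155, 164 and 149 CPM in MI6h_F. It had 119, 107 and 128 CPM in MI6h_R, 139.6, 123 and 136 CPM in MI24h_F and 79.9, 123 and 94.6 CPM in MI24h, against 17.2, 42.5 and 15.02 CPM in Sham. The lowest injured library, in MI24h, was well above the highest Sham library. The log2 fold change was 2.67 ± 0.29 in MI1h_F (edgeR adjusted p = 3.15e-06), 2.62 ± 0.29 in MI1h_R (edgeR adjusted p = 2.87e-06) and 1.99 ± 0.28 in MI24h (edgeR adjusted p = 1.41e-05).

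Mcm3, another subunit of the ring, had 86.9, 80.1 and 78.98 CPM in MI1h_F, 90.2, 84.4 and 87.00 CPM in MI1h_R and 73.7, 66.4 and 76.1 CPM in MI6h_F. It had 67.3, 68.2 and 73.4 CPM in MI6h_R, 74.7, 59.7 and 63.9 CPM in MI24h_F and 47.9, 71.4 and 48.5 CPM in MI24h, against 7.37, 30.3 and 5.81 CPM in Sham. Sham replicate 31 accounted for most of the Sham sum, and no injured library fell to its level. The log2 fold change of Mcm3 was 2.58 ± 0.39 in MI1h_R and 1.94 ± 0.39 in MI24h, and without that library it was 3.74 in MI1h_R and 3.10 in MI24h. Mcm5 averaged 87.9 ± 9.07 CPM in MI1h_R, 57.2 ± 13.7 CPM in MI24h and 15.98 ± 11.6 CPM in Sham (SD, n = 3 each), with log2 fold changes of 2.45 ± 0.32 in MI1h_R and 1.84 ± 0.31 in MI24h.

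Mcm2, Mcm4 and Mcm7, the remaining parts of the ring, had smaller folds. Mcm2 averaged 92.8 ± 12.6 CPM in MI1h_R, 72.6 ± 16.8 CPM in MI24h and 26.98 ± 12.6 CPM in Sham (SD, n = 3 each). Mcm4 averaged 109 ± 12.7 CPM in MI1h_R, 69.3 ± 10.3 CPM in MI24h and 26.2 ± 17.3 CPM in Sham, and Mcm7 averaged 113 ± 8.15 CPM in MI1h_R, 91.3 ± 13.05 CPM in MI24h and 34.4 ± 10.5 CPM in Sham. For each of them all injured libraries exceeded all Sham libraries. Mcm7 had the smallest standard error of the set, with a log2 fold change of 1.71 ± 0.18 in MI1h_R (edgeR adjusted p = 2.38e-06) and 1.41 ± 0.18 in MI24h (edgeR adjusted p = 5.41e-06). In the RefSeq annotation of GRCr8, Mcm7 overlaps the microRNA genes Mir25, Mir93 and Mir106b, Mcm3 a pseudogene (Cct7-ps4) and Mcm6 a transfer RNA gene. Whether the counting used strand was not given in the sources used here, so reads of such neighbours cannot be told apart from those of their host.

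Because the helicase genes moved together and are known E2F targets, the bases before their start sites were read from RefSeq promoter windows (build GRCr8, which differs from rn7, the build of the deposited values). Windows were found for 8 of the 10 genes, without Mcm4 and Cdc6. The letters searched, on both strands, were the E2F-type octamers TTTCCCGC, TTTCGCGC, TTTGCCGC and TTTGGCGC, then CCAAT, the box bound by NF-Y, and TTTGAA. Within 250 bases before and 50 after the start, 6 of the 8 windows held an E2F-type octamer (Mcm2, Mcm3, Mcm5, Mcm6, Mcm7 and Cdt1), against 2.14% of 33469 windows in all and 3.81% of 10081 windows of tested genes. CCAAT was in 6 of the 8 and in 37.5% of all windows, TTTGAA, a core of cell-cycle elements, in 1 of the 8 and in 18.3% of all windows, and in Mcm7 a CCAAT shares 1 base with an E2F-type octamer. The 250 bases before the start are printed 5′ to 3′ for 3 helicase genes that hold the octamer and for Pcna. Pcna, like Mcm10, holds none in its window. Whether the octamers go with the size of the fold changes was not tested. Capitals mark the E2F-type octamers, which run together where they overlap. Mcm2 lies at chr4:122918095-122918344 on the minus strand, Mcm5 at chr19:13488563-13488812 on the plus strand, Mcm6 at chr13:42404353-42404602 on the minus strand and Pcna at chr3:139955821-139956070 on the minus strand.
Mcm2: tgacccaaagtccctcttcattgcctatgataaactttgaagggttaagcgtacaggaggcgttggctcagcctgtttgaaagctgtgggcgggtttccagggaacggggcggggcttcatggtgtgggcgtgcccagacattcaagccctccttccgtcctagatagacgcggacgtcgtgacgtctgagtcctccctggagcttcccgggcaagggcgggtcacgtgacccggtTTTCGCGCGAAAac
Mcm5: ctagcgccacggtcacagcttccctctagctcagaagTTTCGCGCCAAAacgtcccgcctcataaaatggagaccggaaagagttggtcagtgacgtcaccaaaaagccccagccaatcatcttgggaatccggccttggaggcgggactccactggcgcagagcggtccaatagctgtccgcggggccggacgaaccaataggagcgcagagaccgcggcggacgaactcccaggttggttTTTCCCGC
Mcm6: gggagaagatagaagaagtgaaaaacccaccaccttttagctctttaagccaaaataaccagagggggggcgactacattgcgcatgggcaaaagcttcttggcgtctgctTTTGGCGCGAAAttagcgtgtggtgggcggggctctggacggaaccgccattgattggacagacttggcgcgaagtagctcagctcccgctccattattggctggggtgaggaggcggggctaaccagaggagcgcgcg
Pcna: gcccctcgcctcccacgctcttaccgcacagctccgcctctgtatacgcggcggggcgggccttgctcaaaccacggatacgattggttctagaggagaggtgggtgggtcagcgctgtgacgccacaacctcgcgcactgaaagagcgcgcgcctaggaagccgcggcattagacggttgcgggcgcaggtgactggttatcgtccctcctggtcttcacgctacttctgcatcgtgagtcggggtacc

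The octamers of Mcm2 ran from base -14 to base -3 before the start and those of Mcm6 from base -139 to base -128. Mcm5 held a run from base -213 to base -202 and another octamer directly before the start. A match of letters is a description of the window only, and no binding was measured.

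Mcm10, which helps the loaded helicase to open, had 21.8, 17.5 and 17.98 CPM in MI1h_F, 17.4, 18.4 and 16.6 CPM in MI1h_R and 18.9, 17.9 and 17.7 CPM in MI6h_F. It had 13.2, 14.7 and 15.7 CPM in MI6h_R, 14.4, 12.7 and 17.2 CPM in MI24h_F and 12.8, 14.1 and 6.51 CPM in MI24h, against 5.67, 6.73 and 3.95 CPM in Sham. One MI24h library, replicate 41, lay within the Sham values and the other libraries of the injured groups above them. The log2 fold change was 1.80 ± 0.25 in MI1h_F (edgeR adjusted p = 2.04e-05) and 1.02 ± 0.25 in MI24h (edgeR adjusted p = 0.00191). With only MI24h and Sham in the fit it was 1.01 and no longer called (edgeR adjusted p = 0.0695).

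Pcna, the clamp, which also serves DNA repair, had the smallest fold change of the 10. It had 265, 186 and 222 CPM in MI1h_F, 300.3, 338 and 189 CPM in MI1h_R and 206, 264 and 238 CPM in MI6h_F. It had 191, 163 and 166 CPM in MI6h_R, 239.7, 225 and 228 CPM in MI24h_F and 138, 182 and 226 CPM in MI24h, against 69.9, 152 and 103 CPM in Sham. The MI24h values reached down into the Sham range, and the highest Sham library came close to the lowest MI6h_R library. The log2 fold change was 1.35 ± 0.25 in MI1h_R (edgeR adjusted p = 0.000289), 0.68 ± 0.25 in MI6h_R (edgeR adjusted p = 0.0271) and 0.75 ± 0.25 in MI24h (edgeR adjusted p = 0.0174). The calls in MI6h_R and MI24h were lost without Sham replicate 11, with 0.45 in MI6h_R (edgeR adjusted p = 0.126) and 0.50 in MI24h (edgeR adjusted p = 0.0957). They were also lost without Sham replicate 41, with 0.65 in MI6h_R (edgeR adjusted p = 0.0791) and 0.70 in MI24h (edgeR adjusted p = 0.0634). With only the groups compared in the fit the values were 0.66 in MI6h_R (edgeR adjusted p = 0.0792) and 0.73 in MI24h (edgeR adjusted p = 0.101). Leaving out MI6h_R replicate 11 gave 0.61 in MI6h_R (edgeR adjusted p = 0.08), and leaving out MI24h replicate 41 gave 0.57 in MI24h (edgeR adjusted p = 0.0883).

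Without Sham replicate 31 all 10 genes were again called higher in each of the 6 injured groups. Of the 11893 genes then tested, 24.3% were called higher in MI1h_F, 26.1% in MI1h_R, 28.8% in MI6h_F, 29.4% in MI6h_R, 31.4% in MI24h_F and 28.02% in MI24h. The median log2 fold change was then 2.46 in MI1h_F, 2.51 in MI1h_R, 2.49 in MI6h_F, 2.34 in MI6h_R, 2.28 in MI24h_F and 2.11 in MI24h. In MI24h it was then 1.90 for Mcm2, 2.11 for Mcm4, 2.65 for Mcm5, 2.64 for Mcm6, 1.71 for Mcm7, 1.23 for Mcm10, 2.11 for Cdt1 and 1.09 for Pcna. Mcm3, Mcm4, Mcm5, Mcm6 and Cdc6 moved by more than 1.5 times in every comparison when this library was left out, and no other single library moved a gene that far. On library size alone, without the TMM factors, all 10 genes stayed called in each comparison, with log2 fold changes of 1.47 to 3.76 while the median of all tested genes moved to between 0.80 and 0.91. That setting called 54.3% (MI24h_F) to 58.6% (MI6h_R) of all tested genes higher.

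**Figure D2:**
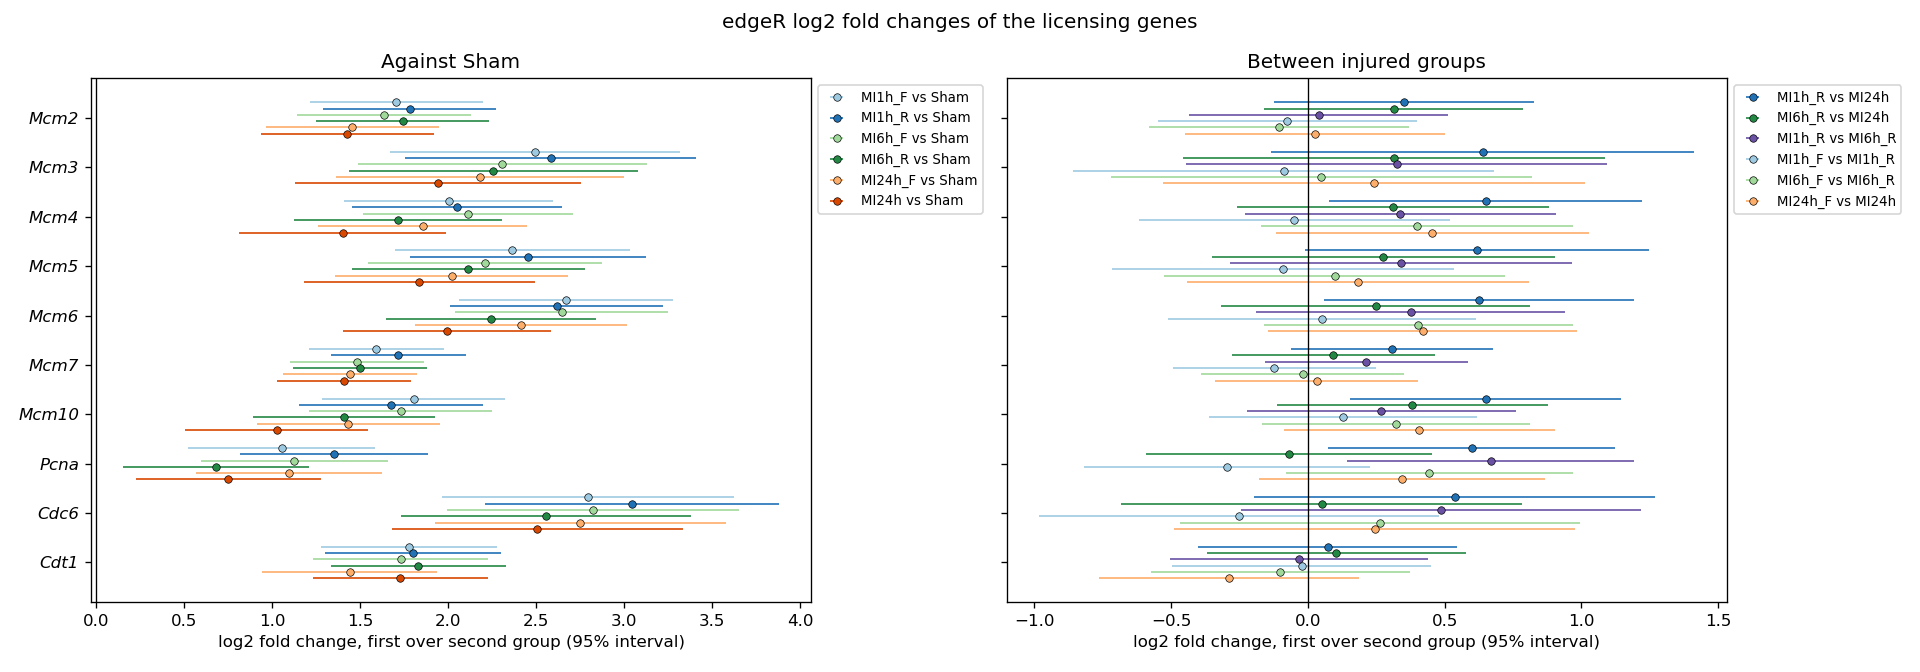
edgeR log2 fold changes of the licensing genes with 95% intervals (horizontal axis, first group over second), against Sham on the left and between injured groups on the right. Every interval against Sham lies above 0, with the lowest bound at 0.15 for Pcna in MI6h_R, while most intervals between injured groups include 0.

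Cardiomyocyte markers were lower, and neutrophil and macrophage markers higher, in the injured libraries than in Sham, without overlap. The summed level of 10 cardiomyocyte markers was 2061 to 15438 CPM in the 18 injured libraries and 57623 to 115283 CPM in Sham. The sum of 9 neutrophil markers was 269 to 3347 CPM in the injured libraries and 25.2 to 81.9 CPM in Sham, and that of 10 macrophage and monocyte markers was 3343 to 8641 CPM in the injured libraries and 895 to 2972 CPM in Sham. Fibroblast markers summed to 2126 to 10776 CPM in the injured libraries and 10540 to 12667 CPM in Sham. They overlapped only through MI1h_F replicate 4, and all other injured libraries lay below every Sham library. The sum of 11 T, B and NK cell markers was 47.6 to 104.7 CPM in MI24h and 66.4 to 101 CPM in MI24h_F, which overlapped with the 52.4 to 73.0 CPM of Sham, and 88.3 to 249 CPM in the other injured groups. Endothelial markers summed to 855 to 1626 CPM in the injured libraries and 992 to 1887 CPM in Sham, and smooth muscle and pericyte markers to 421 to 882 CPM in the injured libraries and 536 to 746 CPM in Sham. No marker of these lists was at 0 in every library. The part of these shifts in the difference of the licensing genes from Sham was not tested.

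Levels between genes were compared per transcript length, in the TPM values of the authors. Pcna had the highest mean TPM in every group, with 290.1, 299 and 199.9 TPM in MI1h_R, 148, 212 and 208 TPM in MI24h and 43.3, 82.6 and 42.95 TPM in Sham. It did not overlap with the next gene in any group. Mcm6 came next in the injured groups, with 62.7, 50.8 and 49.6 TPM in MI1h_R and 31.4, 52.9 and 32.1 TPM in MI24h, although in MI24h it overlapped with Mcm7. In Sham the next was Mcm7 with 6.21, 9.28 and 4.49 TPM, and its neighbours down to Cdt1 could not be separated by their spread. Cdc6 and Mcm10 held the lowest places in all groups, with 5.49, 7.45 and 5.73 TPM for Cdc6 in MI24h and 0.310, 1.18 and 0.170 TPM in Sham.

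The balance between the helicase subunits differed between injured hearts and Sham. Mcm6 made up 21.1% to 28.3% of the summed Mcm2 to Mcm7 TPM in the 18 injured libraries and 16.2% to 17.998% in the 3 Sham libraries, with no overlap. Mcm2 moved the other way, with 11.1% to 15.1% in the injured libraries and 15.5% to 19.6% in Sham. Both differences had p = 0.0015 in a two-sided exact permutation test over libraries, or 0.00451 after Benjamini-Hochberg adjustment over the 6 subunits. With no overlap, that p is the lowest the test can give for these numbers of libraries. The test pooled the 6 injured groups, which differ in injury and F, against the same 3 Sham libraries. The shares of a library add up to the whole, so the tests of the subunits are not independent. Mcm7 took 13.96% to 22.3% in the injured libraries and 19.6% to 31.5% in Sham (exact permutation test, adjusted p = 0.00902), and Mcm3 13.02% to 16.9% in the injured libraries and 7.37% to 15.1% in Sham (exact permutation test, adjusted p = 0.018). Mcm5 took 10.7% to 13.3% in the injured libraries and 9.21% to 11.8% in Sham (exact permutation test, adjusted p = 0.0113). For Mcm4 the shares overlapped throughout (exact permutation test, adjusted p = 0.376). The Sham library closest to the injured ones for Mcm3, Mcm5 and Mcm7 was replicate 31.

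**Figure D3:**
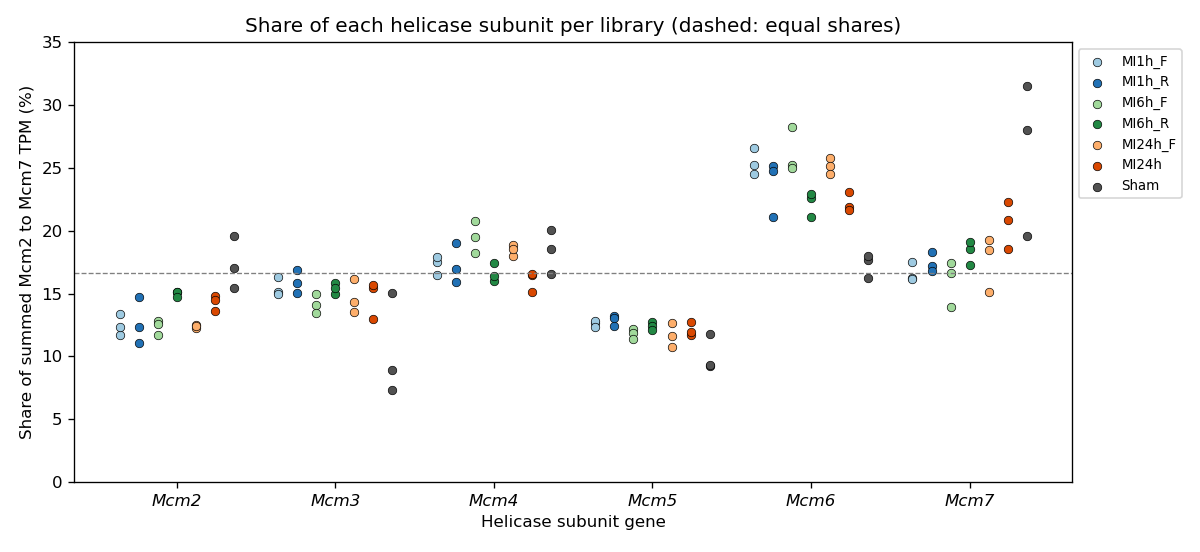
Share of each helicase subunit in the summed TPM of Mcm2 to Mcm7 (vertical axis, percent) in each library (points, coloured by group), with a dashed line where all shares would be equal. Mcm6 lies at 21.1% to 28.3% in the injured libraries and at 16.2% to 17.998% in Sham. Mcm2 is highest in the Sham libraries, and Mcm7 in all of them but replicate 31, which lies below MI24h replicates 11 and 41.

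Early reperfusion was set against permanent ligation, a comparison in which the length of ischemia and the reopening of the artery change together. All 10 had a positive log2 fold change in MI1h_R over MI24h, between 0.07 (Cdt1) and 0.65 (Mcm4 and Mcm10) with a median of 0.61, and none was called by edgeR (4.32% of all tested genes called). At an unadjusted p under 0.05 there were 4, Mcm4, Mcm6, Mcm10 and Pcna, where 20.99% of all tested genes passed. Mcm10 came nearest, with 0.65 ± 0.24 and a 95% interval of 0.15 to 1.15 (edgeR adjusted p = 0.123). DESeq2 called 0 of the 10 (9.14% of all tested genes) and limma on TPM 0 (4.45%), and limma-voom with quality weights called 4 (Mcm4, Mcm5, Mcm6 and Pcna) where it called 12.9% of all tested genes. The 95% intervals of the 10 genes reached from -0.40 to 1.41.

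Between early and late reperfusion, Pcna was the gene with the largest difference. Its 300.3, 338 and 189 CPM in MI1h_R stood against 191, 163 and 166 CPM in MI6h_R, with replicate 41 of MI1h_R inside the MI6h_R range. Its log2 fold change was 0.67 ± 0.25 (95% interval 0.14 to 1.19, edgeR adjusted p = 0.137). edgeR called 0 of the 10 genes, against 2.41% of all tested genes, and 1 at an unadjusted p under 0.05, where 22.02% of all tested genes passed. Leaving out MI1h_R replicate 41 removes the lowest MI1h_R value of Pcna. edgeR then called 1 of the 10. The share of all tested genes in that fit is not given here, so the count cannot be read as a difference. limma-voom called 3 (Mcm6, Pcna and Cdc6) where it called 25.7% of all tested genes. DESeq2 called 0 (7.86% of all tested genes) and limma on TPM 0 (8.23%). In MI6h_R over MI24h the log2 fold changes ran from -0.07 to 0.38, and edgeR called 0 of the 10 (0.502% of all tested genes called). At an unadjusted p under 0.05 there were 0, where 8.48% of all tested genes passed. DESeq2 called 0 there as well (1.67% of all tested genes), limma on TPM 0 (0.400%) and limma-voom 0 (0.468%).

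Among the F groups edgeR again called 0 of the 10 genes, and 0 at an unadjusted p under 0.05, in each pair of injuries. That unadjusted threshold was passed by 30.8% of all tested genes in MI1h_F over MI24h_F, 9.40% in MI6h_F over MI24h_F and 13.6% in MI1h_F over MI6h_F. MI1h_F over MI24h_F gave log2 fold changes of -0.04 to 0.37 (15.6% of all tested genes called), MI6h_F over MI24h_F 0.03 to 0.30 (0.485% called) and MI1h_F over MI6h_F -0.11 to 0.19 (0% called). DESeq2 and limma on TPM called 0 of the 10 in these 3 pairs. In MI1h_F over MI24h_F DESeq2 called 21.3% of all tested genes and limma on TPM 15.7%, in MI6h_F over MI24h_F 1.75% by DESeq2 and 0.443% by limma, and in MI1h_F over MI6h_F 0.749% by DESeq2 and 0% by limma. limma-voom called 3 (Mcm5, Mcm10 and Cdt1) in MI1h_F over MI24h_F, where it called 41.01% of all tested genes. It called 0 of the 10 in MI6h_F over MI24h_F (2.93% of all tested genes) and in MI1h_F over MI6h_F (11.9%).

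The F groups were also set against the same injury without F. In MI24h_F over MI24h the log2 fold changes ran from -0.29 (Cdt1) to 0.46 (Mcm4), with 95% intervals from -0.76 to 1.03 (0 of the 10 called by edgeR, 12.97% of all tested genes called). In MI6h_F over MI6h_R they ran from -0.11 (Mcm2) to 0.44 (Pcna), with 95% intervals from -0.72 to 1.00 (0 of the 10 called, 9.62% of all tested genes called). In MI1h_F over MI1h_R they ran from -0.30 (Pcna) to 0.13 (Mcm10), with 95% intervals from -0.98 to 0.68 (0 of the 10 called, 0.0766% of all tested genes called). None of the 10 had an unadjusted edgeR p under 0.05 in these comparisons, where 29.1% of all tested genes passed in MI24h_F over MI24h, 26.1% in MI6h_F over MI6h_R and 16.3% in MI1h_F over MI1h_R. DESeq2 called 0 of the 10, and 17.6% of all tested genes in MI24h_F over MI24h, 14.8% in MI6h_F over MI6h_R and 317 genes in MI1h_F over MI1h_R. limma on TPM also called 0 of the 10, and 11.3% of all tested genes in MI24h_F over MI24h, 10.6% in MI6h_F over MI6h_R and 0.111% in MI1h_F over MI1h_R. limma-voom called Pcna lower in MI1h_F than in MI1h_R, where it called 23.6% of all tested genes.

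Whether the F difference itself varied with the injury was tested by interaction terms. For the 1 h injury minus the 24 h injury the values ran from -0.64 (Pcna) to 0.27 (Cdt1), for the 6 h minus the 24 h injury from -0.19 to 0.19, and for the 1 h minus the 6 h injury from -0.74 (Pcna) to 0.08 (Cdt1). edgeR called 0 of the 10 genes in all 3 terms, where it called 0% of all tested genes in the first and second terms and 0.00852% in the last. At an unadjusted p under 0.05 there were 0 of the 10 in each. That threshold was passed by 16.9% of all tested genes for 1 h minus 24 h, 3.62% for 6 h minus 24 h and 13.2% for 1 h minus 6 h. DESeq2 and limma on TPM called 0 of the 10 as well. Of all tested genes DESeq2 called 0.00852% (6 h minus 24 h) to 1.92% (1 h minus 24 h) and limma on TPM 0%. limma-voom called Pcna, lower, in the 1 h minus 24 h term (17.1% of all tested genes called) and in the 1 h minus 6 h term (10.8% called).

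The partners of the licensing genes were described from lists of the pathway, with changes as log2 fold changes and their SE. Of the 6 origin recognition complex genes, 3 were called higher in MI1h_R and 3 in MI24h (Orc1, Orc2 and Orc6), and the median log2 fold change of the 6 was 0.49 in MI1h_R and 0.44 in MI24h. There edgeR called 25.4% of all tested genes higher in MI1h_R and 28.04% in MI24h. Orc1, the subunit that comes and goes with the cell cycle in mammals, had 12.8, 17.1 and 12.4 CPM in MI1h_R, 7.58, 9.59 and 9.53 CPM in MI24h and 0.283, 2.64 and 1.10 CPM in Sham. All injured libraries were above Sham, with log2 fold changes of 3.37 ± 0.41 in MI1h_R (edgeR adjusted p = 6.46e-06) and 2.71 ± 0.41 in MI24h (edgeR adjusted p = 2.79e-05). Orc6 rose by 2.21 ± 0.33 in MI1h_R and 1.34 ± 0.33 in MI24h and Orc2 by 0.66 ± 0.19 in MI1h_R and 0.80 ± 0.19 in MI24h. Of the others, Orc3, Orc4 and Orc5 had log2 values between -0.32 and 0.32 in both comparisons, and with library size alone 6 of 6 were called higher in MI1h_R and 4 in MI24h, where 56.2% of all tested genes were called higher in MI1h_R and 55.2% in MI24h. With F, Orc2 was higher in MI24h_F than in MI24h by 0.87 ± 0.19 (edgeR adjusted p = 0.00834) and Orc3 higher in MI6h_F than in MI6h_R by 0.76 ± 0.19 (edgeR adjusted p = 0.019). Each was picked as the called gene of this list with the smallest p. Of all tested genes, edgeR called 12.97% in MI24h_F over MI24h and 9.62% in MI6h_F over MI6h_R.

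Of 7 tested genes that hold licensing back or remove its factors, 6 were called higher in MI1h_F, 5 in MI1h_R, 6 in MI6h_F, 2 in MI6h_R, 6 in MI24h_F and 1 in MI24h, and 1 was called lower in each. These numbers rested on the scaling and on 1 Sham library. On TMM scaling edgeR called 23.9% (MI1h_F) to 30.7% (MI24h_F) of all tested genes higher. On library size alone 6 of the 7 were called higher and 0 lower in each group. That setting called 54.3% (MI24h_F) to 58.6% (MI6h_R) of all tested genes higher and 8.86% (MI1h_F) to 16.6% (MI24h_F) lower. Without Sham replicate 31 there were 5 called higher in MI6h_R (29.4% of all tested genes) and 4 in MI24h (28.02%). Of all tested genes, edgeR on TMM scaling called 24.2% lower in MI1h_F, 24.1% in MI1h_R, 28.5% in MI6h_F, 27.96% in MI6h_R, 30.1% in MI24h_F and 26.2% in MI24h. The list's median log2 fold change was 1.80 in MI1h_R and 0.55 in MI24h. Dtl, the adaptor that directs Cdt1 to destruction in S phase, rose in all groups, by 3.17 ± 0.36 in MI1h_R and 2.66 ± 0.36 in MI24h. Gmnn, geminin, the inhibitor that binds Cdt1, had 20.3, 26.6 and 15.2 CPM in MI1h_R, 7.36, 12.4 and 14.2 CPM in MI24h and 1.98, 11.9 and 3.18 CPM in Sham. MI24h overlapped with Sham through replicate 31 and MI1h_R did not. Gmnn rose in MI1h_R by 1.85 ± 0.45 (edgeR adjusted p = 0.00222) and had 0.98 ± 0.44 in MI24h (edgeR adjusted p = 0.0693). Without that Sham library Gmnn had 3.03 in MI1h_R and 2.16 in MI24h, both called. Ccna2, the S-phase cyclin, was higher in MI1h_R than in MI24h by 1.43 ± 0.38 (edgeR adjusted p = 0.0373). Cul4a, a scaffold of the ligase that uses Dtl, was the lower gene, with -0.95 ± 0.15 in MI1h_R and -1.05 ± 0.15 in MI24h, calls that were lost on library size alone (-0.16 in MI1h_R and -0.31 in MI24h).

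Downstream of licensing, most of the genes that fire the helicase rose with it. Of 14 tested activation and GINS genes 12 were called higher in MI1h_F, 12 in MI1h_R, 12 in MI6h_F, 12 in MI6h_R, 12 in MI24h_F and 11 in MI24h, with a median log2 fold change of 1.89 in MI1h_R and 1.12 in MI24h. In the same comparisons edgeR called 23.9% (MI1h_F) to 30.7% (MI24h_F) of all tested genes higher. Timeless, a replication fork protector, rose by 2.54 ± 0.25 in MI1h_R and 2.10 ± 0.25 in MI24h. Cdc7, the kinase that triggers the helicase, rose by 1.83 ± 0.21 in MI1h_R and 1.44 ± 0.21 in MI24h. The initiation factor gene Topbp1 rose by 1.50 ± 0.17 in MI1h_R, and Recql4, another, by 2.25 ± 0.37 in MI24h. Gins2, a part of the active helicase, was lower in MI24h_F than in MI24h, with -0.57 ± 0.18 (edgeR adjusted p = 0.0443). It was picked as the called gene of its list with the smallest p, where edgeR called 12.97% of all tested genes. Of 4 further MCM family and binding genes, 2 were called higher in MI1h_R (25.4% of all tested genes) and 3 in MI24h (28.04%). They were led by Mcmbp, which binds free MCM proteins, with 1.10 ± 0.12 in MI1h_R and 1.13 ± 0.12 in MI24h.

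Of 11 polymerase and primase genes, 7 were called higher and 2 lower in each of the 6 groups, and their median log2 fold change was 1.33 in MI1h_R and 0.90 in MI24h. Of all tested genes, 23.9% (MI1h_F) to 30.7% (MI24h_F) were called higher and 24.1% (MI1h_R) to 30.1% (MI24h_F) lower. Pole, the catalytic subunit of the leading-strand polymerase, rose by 2.40 ± 0.26 in MI1h_R and 1.76 ± 0.25 in MI24h, its partner Pole2 by 2.86 ± 0.33 in MI1h_R, and Pold3 by 1.36 ± 0.17 in MI1h_R and 0.90 ± 0.16 in MI24h. The 2 lower genes in MI24h were Pola2, with -1.57 ± 0.24, and Pole4, with -0.73 ± 0.20. Library size alone moved Pola2 to -0.83 (called) and Pole4 to 0.02 (not called). Of 11 clamp loader, Okazaki fragment and single-strand binding genes, 9 were called higher in MI1h_R and 7 in MI24h, where 1 was called lower, and the median was 1.34 in MI1h_R and 0.77 in MI24h. Among them the flap nuclease gene Fen1 rose by 1.58 ± 0.26 in MI1h_R and 1.39 ± 0.26 in MI24h and the clamp loader gene Rfc5 by 1.48 ± 0.21 in MI1h_R and 1.09 ± 0.21 in MI24h. Rpa3 was higher in MI6h_F than in MI6h_R by 1.50 ± 0.35 (edgeR adjusted p = 0.0141). It was picked as the called gene of its list with the smallest p, where edgeR called 9.62% of all tested genes.

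Of 4 tested genes of nucleotide supply, 3 were called higher in MI1h_R, Tyms and Dtymk among them, and in MI24h edgeR called 0 higher and 1, Dut, lower. By edgeR, 25.4% of all tested genes were called higher in MI1h_R, and 28.04% higher and 26.2% lower in MI24h. The 1 lower call of the 4 was near that share. The median log2 fold change was 1.02 in MI1h_R and 0.10 in MI24h. In MI24h DESeq2 called 0 of the 4 higher, limma-voom 1 and limma on TPM 3. Out of 11742 tested genes DESeq2 called 3235 higher there and limma-voom 3394, and limma on TPM called 62.8%. Without Sham replicate 31 edgeR called 1 of the 4 higher in MI24h, and 28.02% of all tested genes. Tyms, thymidylate synthase, had 1.13 ± 0.25 in MI1h_R and 0.17 ± 0.25 in MI24h (edgeR adjusted p = 0.584). The difference between MI1h_R and MI24h was itself called for Tyms, with 0.95 ± 0.25 (edgeR adjusted p = 0.0371).

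Upstream, 6 of 7 G1/S cyclin and CDK genes were called higher in MI1h_R and 3 in MI24h, with a median of 1.25 in MI1h_R and 0.87 in MI24h. On library size alone and by limma on TPM 7 of 7 were called higher in both groups. Of all tested genes, edgeR on TMM scaling called 25.4% higher in MI1h_R and 28.04% in MI24h. Library size alone called 56.2% of them higher in MI1h_R and 55.2% in MI24h, and limma on TPM 57.4% in MI1h_R and 62.8% in MI24h. Ccnd1, cyclin D1, rose by 1.25 ± 0.18 in MI1h_R and 1.18 ± 0.18 in MI24h, and Ccne1, a cyclin E gene, by 2.39 ± 0.42 in MI1h_R and 1.90 ± 0.42 in MI24h. Of 12 E2F and RB family genes, 7 were called higher and 3 lower in each of these groups, with a median of 1.25 in MI1h_R and 1.23 in MI24h. The lower calls were near the share of all tested genes called lower, 24.1% in MI1h_R and 26.2% in MI24h. On library size alone 9 of the 12 were called higher and 0 lower in MI1h_R, and 9 higher and 3 lower in MI24h. E2f1, an activating E2F, rose by 2.01 ± 0.28 in MI1h_R and Rbl1, the pocket protein p107, by 2.42 ± 0.32. Rbl2, the pocket protein p130 of resting cells, fell in MI24h, with -1.24 ± 0.14 (edgeR adjusted p = 1.37e-06), a value that library size alone moved to -0.50. The CDK inhibitor gene Cdkn1a (p21) had 18.6, 17.4 and 30.3 CPM in MI1h_R, 87.7, 46.1 and 46.3 CPM in MI24h and 28.2, 25.2 and 46.6 CPM in Sham. The MI1h_R libraries lay below all MI24h libraries, and the log2 fold change of MI1h_R over MI24h was -1.44 ± 0.28 (edgeR adjusted p = 0.00806). In MI6h_F over MI6h_R it was -1.47 ± 0.28 (edgeR adjusted p = 0.00544).

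Genes of mitosis were called higher than Sham in fewer groups than the licensing genes on TMM scaling. Of 7 tested, edgeR called 7 higher than Sham in MI1h_F, MI1h_R, MI6h_F and MI24h_F, and 0 in MI6h_R and MI24h. It called 23.9% of all tested genes higher in MI1h_F, 25.4% in MI1h_R, 28.6% in MI6h_F and 30.7% in MI24h_F. In MI6h_R it called 29.3% of all tested genes higher and in MI24h 28.04%. In both MI6h_R and MI24h 0 of the 7 had an unadjusted edgeR p under 0.05, and DESeq2 called 0. limma-voom called 0 in MI6h_R and 1 in MI24h. These counts rested on the scaling, since library size alone and limma on TPM called 6 of 7 in MI6h_R and in MI24h. Library size alone called 58.6% of all tested genes higher in MI6h_R and 55.2% in MI24h, and limma on TPM called 67.7% in MI6h_R and 62.8% in MI24h. Without Sham replicate 31, 3 of 7 were called in each, and 29.4% of all tested genes were called higher in MI6h_R and 28.02% in MI24h. Mki67, the proliferation marker, had 113, 118 and 79.3 CPM in MI1h_R, 32.3, 47.6 and 28.5 CPM in MI24h and 37.6, 39.2 and 17.3 CPM in Sham. MI24h overlapped with Sham and MI1h_R did not. Mki67 was higher in MI1h_R than in MI24h by 1.52 ± 0.36 (edgeR adjusted p = 0.0231), and Bub1, a spindle checkpoint kinase, by 1.23 ± 0.24 (edgeR adjusted p = 0.00806). Of the 7, edgeR called 2 in that comparison, where it called 4.32% of all tested genes in either direction. Under the alternatives 0 to 4 were called, among which DESeq2 called 9.14% of all tested genes and limma-voom 12.9%. In MI6h_F over MI6h_R edgeR called 5 of the 7 higher, and 9.62% of all tested genes in either direction, with 1.66 ± 0.36 for Mki67 (edgeR adjusted p = 0.0102). There the alternatives called 1 to 6, among which DESeq2 called 14.8% of all tested genes and limma-voom 17.1%.

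A ratio within each library does not depend on scaling. Per 100 counts of the 10 licensing genes, the 7 mitosis genes had 24.8 to 51.7 counts in MI1h_F, 18.1 to 23.04 in MI1h_R, 24.0 to 46.0 in MI6h_F, 11.3 to 13.4 in MI6h_R, 17.4 to 28.3 in MI24h_F, 11.6 to 13.8 in MI24h and 20.7 to 41.1 in Sham. The 6 libraries of MI6h_R and MI24h lay below the other 15, Sham included. The ratios are given as a description, with no test. The cell types behind the ratio were not told apart.

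**Figure D4:**
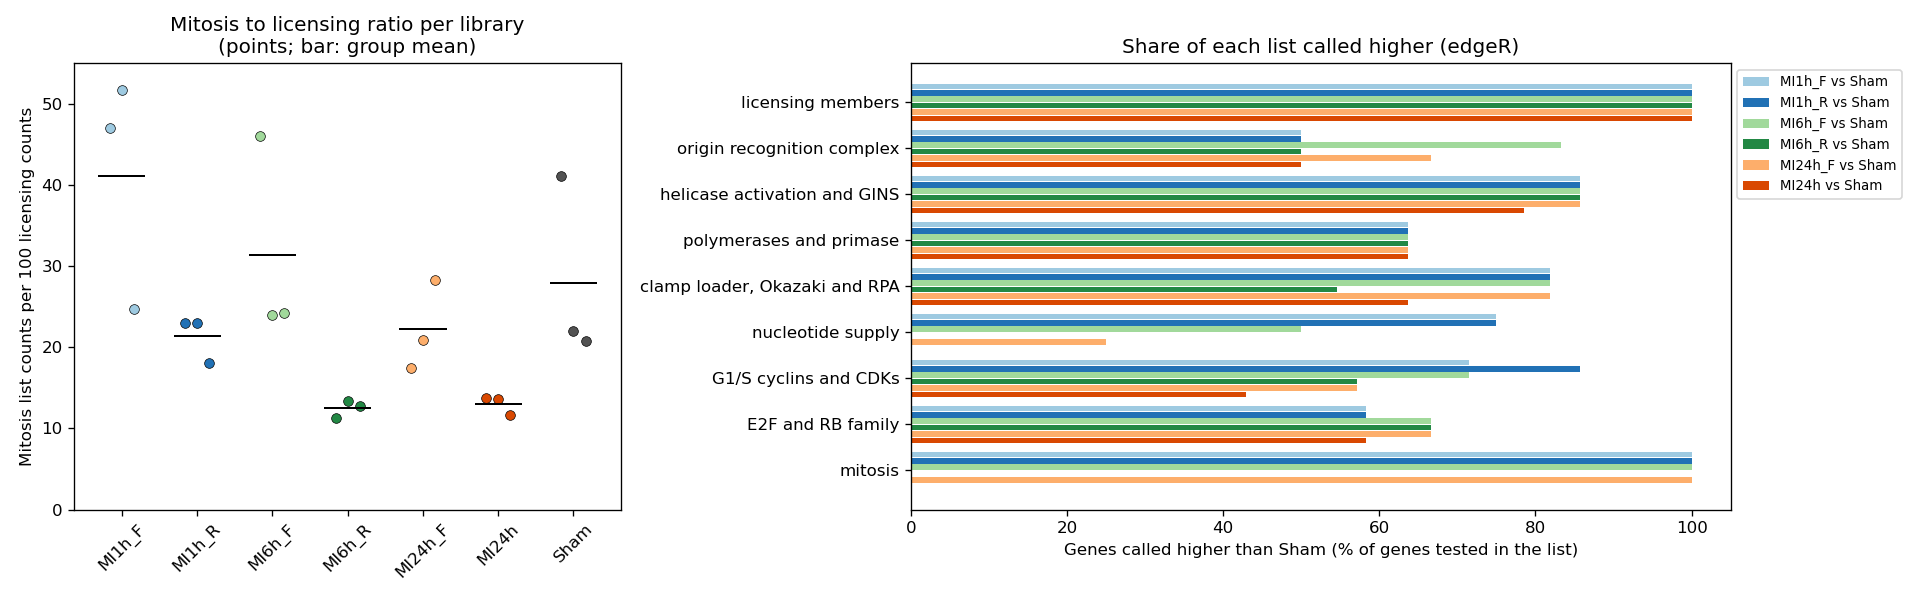
Left, counts of the 7 mitosis genes per 100 counts of the 10 licensing genes in each library (points, bar for the group mean). Right, percent of the tested genes of each list called higher than Sham by edgeR in the 6 injured groups. MI6h_R and MI24h have the lowest ratios, 11.3 to 13.8, and no called mitosis gene on TMM scaling, while all licensing genes are called in each group.

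The 10 genes also varied together over all libraries, Sham included, and less so within the injured ones. Over the 21 libraries Pearson's r of log2 CPM between pairs of them was 0.72 to 0.99 with a median of 0.94 over 45 pairs, a description dominated by the distance between Sham and the injured groups. Within the 18 injured libraries r ran from 0.0048 (Mcm10 and Cdt1) to 0.96 (Mcm4 and Mcm6) with a median of 0.57. Cdt1 departed most there, with r of 0.033 to Pcna and 0.10 to Mcm7, and its highest r was 0.45, to Mcm2. Among all other tested genes, those with the highest r to the mean of the licensing genes over the 21 libraries included Chaf1b, Pak1, Mms22l, Mybl2, Wdhd1, Tgfb2 and Slc35b4, with r between 0.97 and 0.99. Chaf1b encodes a chaperone that places histones on newly made DNA, and averaged 18.3 CPM in MI1h_F, 16.9 CPM in MI1h_R, 11.6 CPM in MI24h and 2.39 CPM in Sham. Within the injured libraries alone the r of these genes was between 0.68 and 0.89.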

How the data were processed

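Bulk mRNA libraries of the infarct zone were made from column-purified, DNase-treated total RNA with the NEBNext Ultra kit and sequenced on an Illumina HiSeq, per the labels' protocols. The deposited tables hold, for 17085 gene symbols and 21 libraries, estimated counts as whole numbers and TPM, both made by the authors. STAR 2.7.3a, RSEM 1.3.1 and the build rn7 are named in the submitters' processing notes. No source used here gave the annotation or the strandedness.

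From the counts, edgeR 4.0.16 in R 4.3.3 kept 11742 genes (filterByExpr on the 7 groups), scaled libraries by TMM and fitted 1 quasi-likelihood model to all 21 libraries. The 15 group comparisons and 3 interaction terms were contrasts of it, adjusted by Benjamini-Hochberg over all tested genes and called at an adjusted p under 0.05. Standard errors were taken as the absolute log2 fold change over the root of F. Correlations use log2 CPM with a prior count of 2. TPM shares were tested by exact permutation (scipy 1.17.1). The fits were tested on simulated data.

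The members and the lists were chosen with earlier results of these data known, and a count over a list is a description. In each pathway list the genes named are among the 3 with the smallest p in MI1h_R and in MI24h against Sham and, in other comparisons, the called gene with the smallest p. Pole4, Orc4 and Orc5 were named after their values were seen, as were further values of a gene so named. Some genes that the naming rule picks are not reported here. Of 194 listed symbols 163 were in the tables. Alternatives were DESeq2 1.42.0, limma 3.58.1 (voom with quality weights, and a trend on log2(TPM + 1) or log2(TPM + 0.1)), other scalings, no filter, no mitochondrial transcripts, only the groups compared, a replicate block, and each library left out in turn. Depth sets the precision of low genes, since 1 count was worth 0.0485 to 0.11 CPM. Figures were drawn with matplotlib 3.10.9. Libraries were all distinct, and no member shared its counts with another symbol.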

Additional observations from a re-analysis of the deposited data

How the results depend on the processing

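Of 960 recomputed log2 fold changes of the 10 genes against Sham, 947 stayed called, 13 lost their call and 0 changed sign, with values from 0.45 to 4.27. The losses were 12 of Pcna and 1 of Mcm10, in MI6h_R and MI24h, and the number of called genes there was 8 to 10. Between injured groups, where edgeR called 0 of the 10, limma-voom with quality weights called 4 in MI1h_R over MI24h, 3 in MI1h_R over MI6h_R, 3 in MI1h_F over MI24h_F, 1 in MI1h_F over MI1h_R, and 1 in each interaction term that holds the 1 h injury. Leaving out 1 library gave 0 to 1 called genes in MI1h_R over MI6h_R, counts given without the share of all tested genes in those fits. The cause was not tested. A replicate block could be fitted only within the groups without F and within those with F. It called 9 of 10 genes in MI24h over Sham, 9 in MI6h_R over Sham and 10 in MI1h_R over Sham, the same numbers as those fits without the block. The labels do not say whether equal numbers mark paired libraries. The deviations of 20 same-numbered pairs from their group means correlated at -0.54 to 0.32, and 5 of them had r over 0.1. The best correlation of a library was with its own number in 1 of 21. With 3 libraries per group these correlations cannot decide whether libraries were paired. The 2 fits without the block and all alternatives for pathway genes were added after seeing the data. Groups of 3 limit the precision, and the 95% intervals of the 10 genes between the F groups and the same injury without F reached from -0.98 to 1.03 on the log2 scale.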
